A study of Mus musculus with 22 samples.

Results

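The BCL2 family of apoptosis genes was examined in control mouse embryos and in embryos depleted of the histone variant H2A.Z. The 10 members were taken by name: the anti-apoptotic genes Bcl2, Bcl2l1 and Mcl1, the effectors Bax and Bak1, and the BH3-only genes Bid, Bik, Bbc3, Pmaip1 and Bcl2l11. All 10 were found among the 55335 genes of the expression table. The proteins of this family set the threshold of mitochondrial apoptosis. BAX and BAK1 open the outer mitochondrial membrane and release cytochrome c, anti-apoptotic proteins such as MCL1 and BCL-XL (the product of Bcl2l1) hold them in check, and BH3-only proteins either neutralise the anti-apoptotic members or activate the effectors. Some cell death is a regular part of mouse preimplantation development and is seen most in the inner cell mass of blastocysts.

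RNA-seq was performed on 22 libraries, each of 15 pooled embryos of superovulated B6D2F1 females, 8 weeks old, mated with B6D2F1 males. In all groups the zona pellucida was removed with 0.5% pronase E before lysis. A gene's level is given as FPKM, its share of the library's fragments per length of transcript. Zygotes were taken from the mated females and cultured in vitro until harvest. Control embryos gave 4 libraries of 2-cell embryos, harvested 43 to 44 h after the hCG injection, 4 of morulae (78 h) and 4 of blastocysts (94 h). For the H2A.Z knockdown (KD), zygotes of the same cross were injected 20 to 22 h after hCG with about 10 pL of a mix of 3 siRNA pairs against H2A.Z at 20 µM. They were also cultured in vitro, and gave 3 libraries of 2-cell embryos, 3 of morulae and 4 of blastocysts, at the same times. The methods call the control embryos of quantitative PCR noninjected and do not give the treatment of the control embryos sequenced here, so that effects of injection and of the KD cannot be told apart, and since embryos were pooled, the spread between libraries is that between pools.

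The targeted gene, H2afz, was low in every library labelled KD. In 2-cell embryos its FPKM was 1244, 1236, 905 and 1178 in the control libraries and 415, 139 and 112 in the KD libraries. In morulae it was 1158, 1336, 1511 and 1421 in control and 30.3, 25.7 and 29.0 in KD libraries. In blastocysts it was 2656, 2431, 1945 and 2055 in control and 64.2, 67.2, 53.2 and 57.6 in KD libraries. The groups did not overlap at any stage. The log2 fold change was -5.41 in morulae (adjusted p = 9.71e-08, limma) and -5.19 in blastocysts (adjusted p = 3.63e-08, limma). At the 2-cell stage it was -2.53, which did not pass in limma (adjusted p = 0.543, the smallest of the 12160 genes tested there). The exact two-sided permutation test of H2afz alone gave p = 0.0286, the smallest that 35 splits of these libraries allow. This value restates the lack of overlap and adds no further evidence. Without KD replicate 1, the library with the highest remaining H2afz, the gene passed in limma (-3.12, adjusted p = 0.000907). The related gene H2afv, which encodes a second H2A.Z protein, was lower in KD morulae (-2.93, limma, adjusted p = 2.93e-06) and KD blastocysts (-1.86, limma, adjusted p = 7.95e-05).

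Stage markers followed the labels. The summed FPKM of 4 genes of the 2-cell embryo (most abundant Zfp352) lay between 157 and 223 in the 2-cell libraries and between 0.291 and 6.46 in the others. The sum of 8 trophectoderm genes, led by Krt18 from the morula on, rose from 9.61 to 19.2 in 2-cell libraries to 998 to 1485 in control blastocysts. The sum of 5 oocyte genes was 194 to 233 in 2-cell libraries (most abundant Bmp15) and at most 8.78 later. Of 8 genes of cumulus and granulosa cells, Fshr and Ptx3 were at 0 in every library, and Amhr2, the most abundant, made up most of sums between 3.87 and 18.4.

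Depth in reads is not given by FPKM. In single-exon genes, FPKM times length came in steps, from which a relative depth of 14.8 to 28.7 per library was read, 14.8 to 22.1 in control and 17.2 to 21.2 in KD blastocysts. A total of 10143 to 12090 genes per library had an FPKM of at least 1. Some libraries stood apart for members. Control morula replicate 1 had the highest level of its group for every member but Bid, and a primitive endoderm marker sum of 28.0 against 9.01 to 10.5 in the other control morulae. KD blastocyst replicate 5 had the highest Bbc3, Bcl2l1, Mcl1 and Bcl2 of its group and a primitive endoderm sum of 37.4 against 10.2 to 20.2. Control blastocyst replicate 1 had the lowest Bax, Bak1, Bid, Bcl2l1, Pmaip1 and Bcl2l11 of its group, and its FPKM summed over all genes was 722576 against 646290 to 670289 in the other control blastocysts.

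Positions of the members are those of GENCODE M21 on GRCm38, the assembly of mm10. The anti-apoptotic genes are Bcl2 (ENSMUSG00000057329.7, chr1:106538178-106714274, minus strand), Bcl2l1 (ENSMUSG00000007659.18, chr2:152780668-152831728, minus strand) and Mcl1 (ENSMUSG00000038612.16, chr3:95658788-95663176, plus strand). The effectors are Bax (ENSMUSG00000003873.11, chr7:45461697-45466898, minus strand) and Bak1 (ENSMUSG00000057789.14, chr17:27019810-27029009, minus strand). The BH3-only genes are Bid (ENSMUSG00000004446.12, chr6:120891930-120916853, minus strand), Bik (ENSMUSG00000016758.4, chr15:83526862-83544634, plus strand), Bbc3 (ENSMUSG00000002083.13, chr7:16308393-16318205, plus strand), Pmaip1 (ENSMUSG00000024521.8, chr18:66458533-66465565, plus strand) and Bcl2l11 (ENSMUSG00000027381.16, chr2:128126038-128162547, plus strand). In 4 of them exons overlap another gene, so that reads could be split or shared and their values are uncertain. Bax shares 192 of 1576 exonic bases with Gm45808 on the same strand. Bid shares 628 exonic bases with Bcl2l13, Bak1 shares 437 and 177 with 2 entries of Ggnbp1, and Bcl2 shares 558 with D630008O14Rik, all on the opposite strand, which Smart-seq2 libraries do not tell apart.

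In control embryos, the order of the members changed between the 2-cell stage and the morula. Mcl1 was highest in 2-cell embryos, with a mean FPKM of 22.0 ± 2.79 (SD, n = 4), above Bik at 14.9 ± 2.27, and their ranges did not overlap. Bcl2l11 (mean 11.9), Bax (9.74), Bid (8.50) and Pmaip1 (7.94) followed with overlapping ranges between neighbours, and Bcl2l1 had a mean of 5.27. In control morulae Bax led at 70.9 ± 15.9 (SD, n = 4), followed without overlap by Mcl1 at 27.9 ± 3.10 and Bid at 12.7 ± 1.23. Pmaip1 (3.24), Bcl2l11 (3.16) and Bcl2l1 (2.94) overlapped. In control blastocysts Bax (67.0 ± 14.4, SD, n = 4) again stood above Mcl1 (17.5 ± 2.11) and Mcl1 above Bid (4.24 ± 1.43), without overlap. Pmaip1 (2.82), whose range overlapped that of Bid, was above Bcl2l1 (1.13), Bcl2l11 (1.01) and Bik (0.789), which overlapped as neighbours. Bcl2, Bak1 and Bbc3 had means under 0.1 in every control group.

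**Figure D1:**
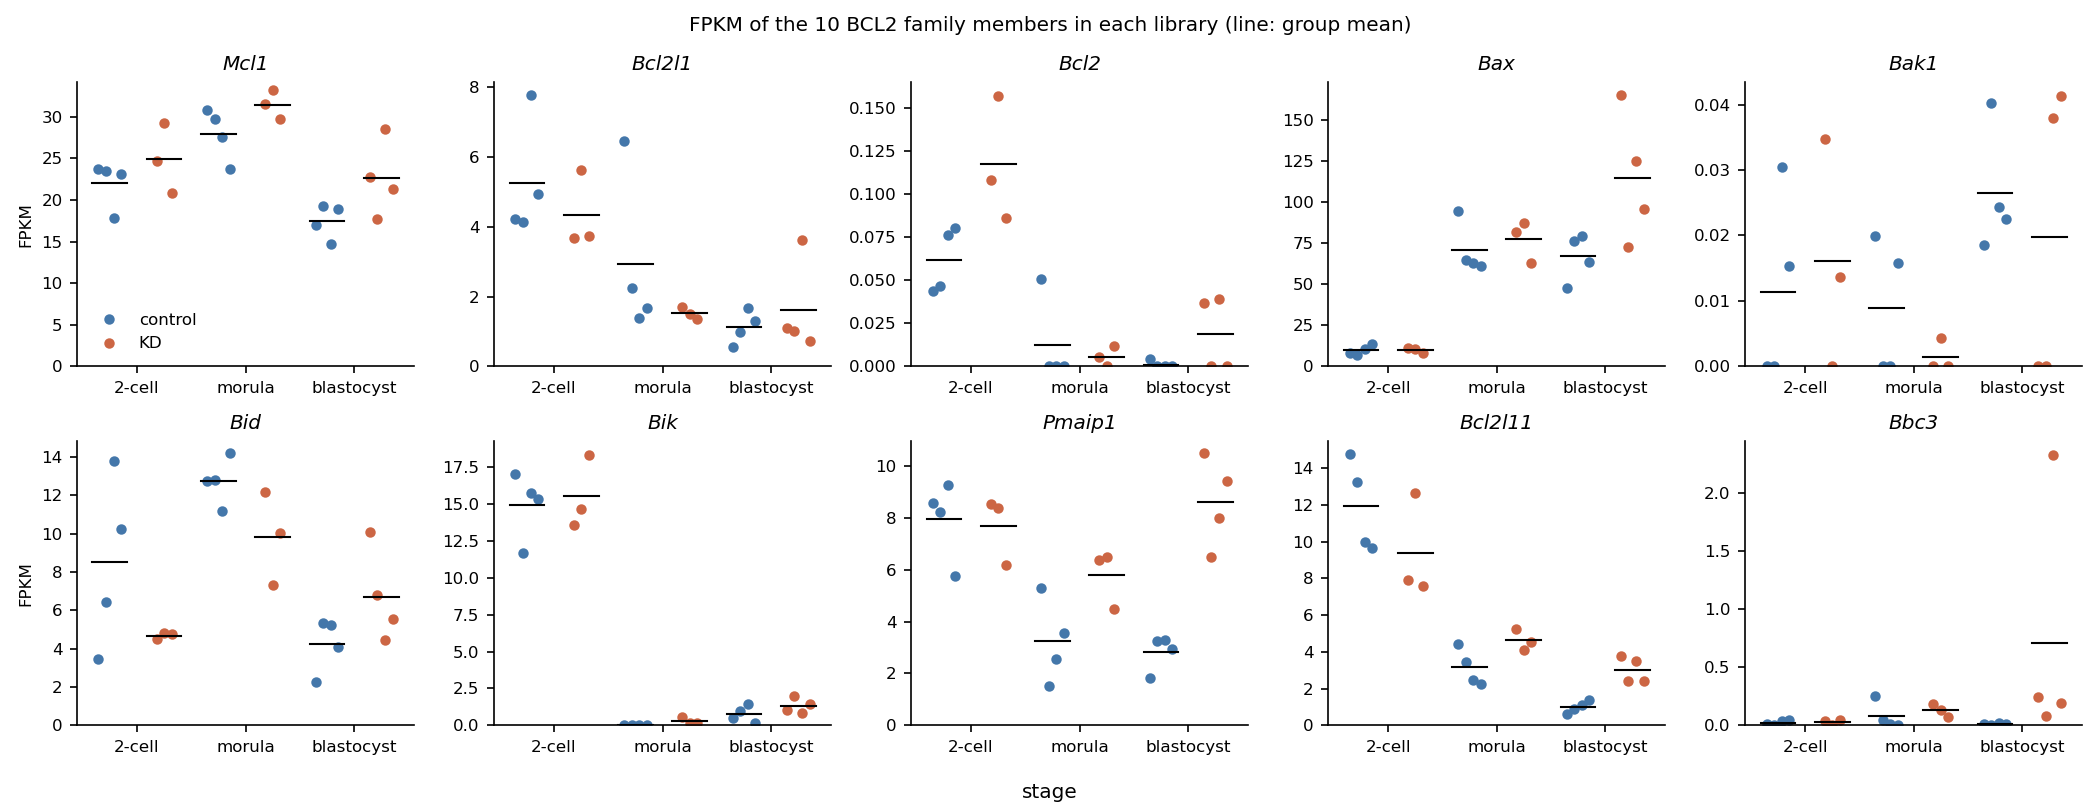
FPKM (linear axes from 0, with a scale for each gene) of each member in every library, by stage, with control libraries in blue and KD libraries in orange. Black lines are group means. Bax lies between 47.9 and 94.6 in control morulae and blastocysts and between 6.83 and 13.6 in control 2-cell embryos. In blastocysts all KD libraries lie above all control libraries for Pmaip1, Bcl2l11 and Bbc3, the last of which was too low to be tested. The share of all genes with ranges apart was not counted. Of all genes tested with limma in blastocysts, 16.7% were higher and 19.8% lower in KD.

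A gene was tested where its FPKM was at least 1 in at least 3 libraries of a comparison, and it passed at a limma p-value, adjusted by Benjamini-Hochberg over all genes tested, under 0.05. Fold changes are differences of log2(scaled FPKM + 1) and understate changes of low genes. Across control development 7 of the 10 members were tested, and Bcl2, Bak1 and Bbc3 were not. From the 2-cell embryo to the morula 1 member was higher, among 40.6% of the 14686 genes tested, and 4 were lower, against 40.4% of all genes. From the morula to the blastocyst 1 was higher and 4 were lower, against 24.3% and 21.7% of all genes. The members' median log2 fold change was -0.93 in the first step and -0.66 in the second, where the medians of all genes were 0.03 and -0.00103. The same control morulae and control blastocysts also serve in the KD comparisons. FPKM are shares of each stage's RNA, so all these changes are relative to the other transcripts. With FPKM as deposited the median of all genes was 0.138 in the first step.

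Among the anti-apoptotic genes, Mcl1 encodes a short-lived protein needed for preimplantation development. Its FPKM was 23.7, 23.4, 17.8 and 23.1 in control 2-cell embryos, 30.8, 29.7, 27.6 and 23.7 in control morulae and 17.0, 19.2, 14.7 and 19.0 in control blastocysts. Every control blastocyst library was thus below every control morula library. Mcl1 fell by 0.66 on the log2 scale from the morula to the blastocyst (SE 0.168, limma, adjusted p = 0.00492), and its difference of 0.17 from the 2-cell embryo to the morula did not pass. Bcl2l1 was 4.21, 4.15, 7.77 and 4.93 in control 2-cell embryos, 6.44, 2.24, 1.40 and 1.67 in control morulae and 0.548, 0.998, 1.68 and 1.30 in control blastocysts. Apart from morula replicate 1, the libraries of later stages were lower than those of the 2-cell stage. The gene fell by 0.93 (SE 0.267, limma, adjusted p = 0.00507) and then by 0.74 (SE 0.267, limma, adjusted p = 0.0338). This second call was lost without morula replicate 1 (-0.43, adjusted p = 0.0921, limma), morula replicate 2 (-0.78, 0.0508), blastocyst replicate 1 (-0.63, 0.0953) or blastocyst replicate 4 (-0.71, 0.0715), as well as with no filter and with FPKM as deposited. With a pseudocount of 0.1 the fold change was -1.14. Bcl2 did not pass 0.0805 in any control library and was at 0 in 6 of the 8 control morula and blastocyst libraries.

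Of the effectors, Bax rose steeply. Its FPKM was 7.88, 6.83, 10.6 and 13.6 in control 2-cell embryos, 94.6, 65.0, 63.0 and 61.1 in control morulae and 47.9, 76.6, 79.6 and 63.9 in control blastocysts. The 2-cell libraries were all far below those of both later stages, which overlapped with each other. The log2 fold change from the 2-cell embryo to the morula was 2.60 (SE 0.179, limma, adjusted p = 3.6e-09), and the later difference of -0.10 did not pass. That later difference was -0.006 without morula replicate 1 and -0.007 without blastocyst replicate 1. Gm45808, the gene that shares exons with Bax, also rose, by 1.88 (limma, adjusted p = 4.84e-07). Bak1, the other effector, was at most 0.0402 in every control library.

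The BH3-only genes differed in their course. Bik encodes a BH3-only protein of the endoplasmic reticulum. Its FPKM was 17.0, 11.7, 15.7 and 15.3 in control 2-cell embryos, 0.0336, 0.00734, 0.00686 and 0.0137 in control morulae and 0.534, 1.00, 1.47 and 0.143 in control blastocysts. The 3 stages did not overlap, with the morula lowest. Bik fell by 4.02 (SE 0.191, limma, adjusted p = 5.81e-11) and then rose by 0.71 (SE 0.191, limma, adjusted p = 0.0067). With a pseudocount of 0.1 these were -7.10 and 2.57. Bik passed the filter only through the 2-cell libraries. It was at 1 FPKM or more in 4 control 2-cell, 0 control morula and 2 control blastocyst libraries. Its fold changes are therefore given as a description, and its calls also held with no filter.

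Bcl2l11 encodes BIM, which binds all anti-apoptotic members. Its FPKM was 14.7, 13.3, 9.99 and 9.67 in control 2-cell embryos, 4.42, 3.47, 2.49 and 2.28 in control morulae and 0.630, 0.873, 1.12 and 1.41 in control blastocysts. It was lower at each later stage, without overlap, and fell by 1.79 (SE 0.199, limma, adjusted p = 8.17e-07) and then by 1.02 (SE 0.199, limma, adjusted p = 0.000665). With a pseudocount of 0.1 the second step was -1.57. Pmaip1 encodes NOXA, a BH3-only protein that binds MCL1, and its transcription is a known target of p53. Its FPKM was 8.55, 8.20, 9.27 and 5.75 in control 2-cell embryos, 5.29, 1.53, 2.56 and 3.57 in control morulae and 1.81, 3.25, 3.29 and 2.93 in control blastocysts. The later stages overlapped with each other and lay below the 2-cell libraries. Pmaip1 fell by 1.28 in the first step (SE 0.230, limma, adjusted p = 0.000115), and its later difference of -0.10, which was 0.07 without morula replicate 1, did not pass. Bid encodes a protein that caspase-8 cleaves into an activator of the effectors. Its FPKM was 3.49, 6.46, 13.8 and 10.3 in control 2-cell embryos, 12.7, 12.8, 11.2 and 14.2 in control morulae and 2.29, 5.36, 5.26 and 4.07 in control blastocysts. The 2-cell libraries spread across the levels of both later stages, which did not overlap with each other. Bid fell by 1.44 from the morula to the blastocyst (SE 0.272, limma, adjusted p = 0.000516), and the earlier difference of 0.52 passed only without 2-cell replicate 4 (0.72, limma, adjusted p = 0.0216). Bcl2l13, which shares exons with Bid, also passed as lower from the morula to the blastocyst (mean 2.3 and 1.12 FPKM). Bbc3, which encodes the p53-induced protein PUMA, was at most 0.253 in control libraries, the highest being morula replicate 1.

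At the 2-cell stage no KD difference passed: 0 of 7 tested members and 0% of all 12160 genes tested with limma, in either direction. At an unadjusted p under 0.05 there were 0 members and 701 genes. With 1 library left out, the number of genes lay between 438 (without KD replicate 1) and 1053 (without control replicate 1). The members' log2 fold changes ran from -0.54 (Bid, 95% interval -1.26 to 0.168) to 0.23 (Mcl1, -0.166 to 0.63). Bid was 4.49, 4.80 and 4.77 in KD libraries, within the wide control range of 3.49 to 13.8. Bcl2l11 was 7.89, 12.6 and 7.58 in KD libraries, and the control libraries lay between 9.67 and 14.7. Bcl2, which was not tested, was 0.108, 0.157 and 0.0862 in KD and 0.0435, 0.0466, 0.0761 and 0.0805 in control libraries, very low values that did not overlap. Without control replicate 2 and without KD replicate 1, 1 gene and 3 genes passed in limma, none of them a member.

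In KD morulae 6 of 10 members were tested (Bik, Bcl2, Bak1 and Bbc3 were too low), and 0 passed in limma, while 4.23% of the 10989 genes tested were higher and 9.04% lower (2 members and 3352 genes had an unadjusted p under 0.05). With FPKM as deposited, 281 genes were higher and 1553 lower, against 465 and 993 with scaled FPKM. The members' median log2 fold change was 0.276 and that of all genes was 0.0152.

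Pmaip1 was 5.29, 1.53, 2.56 and 3.57 in control and 6.38, 6.47 and 4.50 in KD morulae. KD replicate 6 lay below control replicate 1, and the other KD libraries lay above all control libraries. The log2 fold change was 0.84 (SE 0.258, limma, adjusted p = 0.0551). Bcl2l11 was 4.42, 3.47, 2.49 and 2.28 in control and 5.23, 4.11 and 4.55 in KD morulae, again with an overlap through control replicate 1. Its log2 fold change was 0.56 (SE 0.177, limma, adjusted p = 0.0618). Without control replicate 1 both passed, Pmaip1 at 1.00 (limma, adjusted p = 0.0261) and Bcl2l11 at 0.64 (limma, adjusted p = 0.0343). The other members had log2 fold changes of 0.29 (Mcl1), 0.26 (Bax), -0.25 (Bid) and -0.39 (Bcl2l1), and the last was -0.09 without control replicate 1 and -0.78 with the replicate block (limma, adjusted p = 0.031). With the replicate block Pmaip1 also passed, at 1.03 (limma, adjusted p = 0.00226), and with low and high replicate numbers as batches Bcl2l11 passed at 0.52 (limma, adjusted p = 0.0499). Only 2 replicate numbers occur in both groups of morulae, so the block fit has 1 residual degree of freedom and its p-values carry little weight. Bik, untested, was 0.552, 0.144 and 0.194 in KD morulae, above all 4 control libraries, which did not pass 0.0336.

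The paper reports that the KD significantly reduced blastocyst formation. It does not state how the KD embryos pooled as blastocysts were chosen. In KD blastocysts 3 members were higher than in control blastocysts and 0 were lower, of 7 tested. Among all 11828 genes tested with limma, 16.7% were higher and 19.8% lower. The share of all genes whose KD and control libraries did not overlap was not counted. The 3 were the BH3-only genes Pmaip1 and Bcl2l11 and the effector Bax. The fold changes of all 7 were above 0, with a median of 0.568 against 0.0047 over all genes.

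Pmaip1 was 1.81, 3.25, 3.29 and 2.93 in control and 10.5, 6.48, 7.99 and 9.42 in KD blastocysts. Every KD library was above every control library, the nearest being 6.48 and 3.29. The log2 fold change was 1.34 (SE 0.196, limma, adjusted p = 0.000337), and it lay between 1.22 and 1.59 over all alternatives. The KD libraries reached the range of the 2-cell embryos, 5.75 to 9.27 in control libraries.

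Bcl2l11 was 0.630, 0.873, 1.12 and 1.41 in control and 3.79, 2.44, 3.49 and 2.43 in KD blastocysts. The groups did not overlap, and the KD values fell within the range of 2.28 to 4.42 of the control morulae. The log2 fold change was 1.01 (SE 0.181, limma, adjusted p = 0.00122), and with a pseudocount of 0.1 it was 1.53. Both calls remained without KD replicate 5 and without control replicate 1 (Pmaip1 1.23 and Bcl2l11 0.94 in the second case).

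Bax was 47.9, 76.6, 79.6 and 63.9 in control and 165, 72.8, 125 and 96.2 in KD blastocysts. KD replicate 4 lay within the control range, and the other KD libraries lay above it. The log2 fold change was 0.74 (SE 0.234, limma, adjusted p = 0.0266). The call was lost without control replicate 1 (0.64, adjusted p = 0.0683, limma), control replicate 6 (0.71, 0.0626), KD replicate 1 (0.51, 0.0611) or KD replicate 5 (0.73, 0.0532), and with no filter on low FPKM (limma, adjusted p = 0.114). Gm45808, which shares exons with Bax, had a log2 fold change of 0.68 (limma, adjusted p = 0.0281), and reads of the shared exons could count for either.

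The other members of KD blastocysts did not pass. Bid was 2.29, 5.36, 5.26 and 4.07 in control and 10.1, 6.81, 4.44 and 5.57 in KD libraries, a log2 fold change of 0.57 (limma, adjusted p = 0.116) that passed only without KD replicate 5 (0.76, limma, adjusted p = 0.0421). Mcl1 was 17.0, 19.2, 14.7 and 19.0 in control and 22.7, 17.8, 28.5 and 21.4 in KD libraries, and KD replicate 4 lay among the controls (0.35, 95% interval -0.0233 to 0.718). Bcl2l1 was 0.548, 0.998, 1.68 and 1.30 in control and 1.09, 1.01, 3.62 and 0.739 in KD libraries. Its log2 fold change of 0.21 turned to -0.06 without KD replicate 5, the single high library. Bik was 0.143 to 1.47 in control and 0.857 to 1.97 in KD libraries (0.43, limma, adjusted p = 0.182).

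Bbc3 was too low to be tested, with FPKM of 0.00869, 0, 0.0239 and 0.0125 in control and 0.244, 0.0818, 2.32 and 0.192 in KD blastocysts. All KD libraries were above all control libraries, and KD replicate 5 was far above the others. Bak1 was at most 0.0413 and Bcl2 at most 0.0389 in KD blastocysts.

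**Figure D2:**
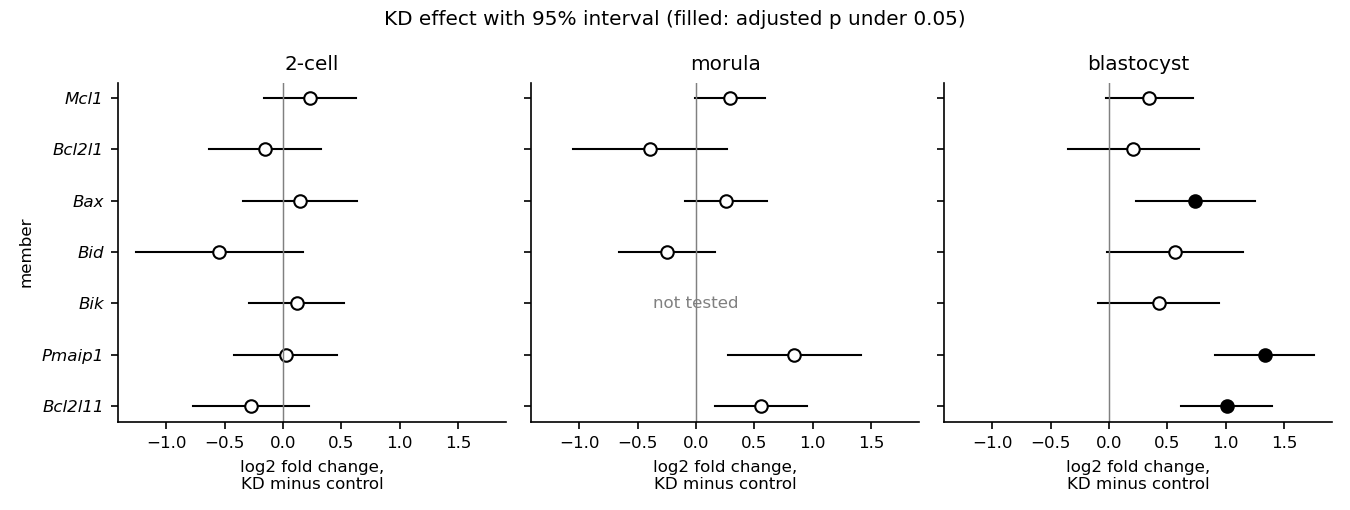
Log2 fold change of each tested member, KD minus control, at the 3 stages, as points with 95% intervals from limma. Filled points passed at an adjusted p under 0.05, which held for Bax, Pmaip1 and Bcl2l11 in blastocysts and for no member in 2-cell embryos or morulae.

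Lineage markers also differed in KD blastocysts. The summed FPKM of the 8 trophectoderm genes was 1005, 1485, 1322 and 998 in control and 599, 751, 808 and 616 in KD libraries, with Krt18 the most abundant and no gene of the list at 0 throughout. Krt18 (-1.02) and Elf5 (-1.23) were lower, and Tfap2c (0.96) and Tead4 (0.85) higher, all at an adjusted p under 0.05 in limma. The sum of 6 inner cell mass genes, led by Nanog, was 115, 137, 224 and 137 in control and 141, 156, 287 and 202 in KD libraries, and of its genes Klf4 (0.61) passed. Of the 4 genes of the 2-cell embryo, 1 was tested, Zfp352. It passed the filter through the KD libraries alone (at 1 FPKM or more in 4 KD and 0 control libraries). Its log2 fold change of 1.56 is therefore given as a description. Of 5 primitive endoderm genes 0 of 1 tested passed. The sums of oocyte genes were 1.52 to 2.33 in control and 1.51 to 4.40 in KD blastocysts, and those of cumulus genes 3.94 to 6.34 and 4.08 to 6.40. In these bulk samples fewer cells of a type and less RNA per cell cannot be told apart, and the part of cell composition or of developmental timing in the members' differences was not tested. In KD morulae Nanog was lower (-2.23, limma, adjusted p = 0.00647), the only marker of these lists to pass there, and the inner cell mass sum was 47.7, 41.2 and 56.4 against 129 to 171 in control morulae. The trophectoderm sum was 113, 104 and 133 in KD and 134 to 165 in control morulae, also without overlap, and 0 of 6 tested genes of that list passed in limma (1 had an unadjusted p under 0.05).

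Whether the KD effect differed between morulae and blastocysts was tested as an interaction in limma. None of 7 tested members passed (0 of 7), while in 5.43% of the 12727 genes tested a signed difference, blastocyst minus morula, passed above 0 and in 6.32% below 0. This balance depends on the scale, since 691 genes passed above and 804 below 0 here, 894 and 703 with FPKM as deposited, and 729 and 580 with a pseudocount of 0.1. The differences were 0.78 for Bid (95% interval 0.0385 to 1.52, limma, adjusted p = 0.162), 0.58 for Bcl2l1, 0.44 for Pmaip1, 0.44 for Bax, 0.40 for Bcl2l11, 0.04 for Bik and 0.02 for Mcl1. With a pseudocount of 0.1 that of Bik, which was near 0 FPKM in control morulae, turned to -0.83. Without control morula replicate 1 those of Bcl2l1 and Pmaip1 were both 0.27, and without KD blastocyst replicate 5 that of Bcl2l1 was 0.31. Pmaip1, Bcl2l11 and Bax thus passed in blastocysts and not in morulae, without a shown difference between the stages.

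The balance of the classes was described by their shares in the summed FPKM of the 10 members, without a test. The sum was 74.1 to 85.1 in control 2-cell embryos, 107 to 155 in control morulae, 70.8 to 107 in control blastocysts and 109 to 215 in KD blastocysts. BH3-only genes made up 53.8% ± 3.24 (SD, n = 4) in control 2-cell embryos, 16.0% ± 1.90 in control morulae and 9.22% ± 1.28 in control blastocysts. Effectors, almost all Bax, made up 9.22 to 16.5%, 56.6 to 61.2% and 67.7 to 74.3% at these stages. The anti-apoptotic share was 34.1% ± 2.99, 25.6% ± 1.97 and 20.2% ± 4.10. This order rests on Bax, since without it the anti-apoptotic share was 38.8%, 61.5% and 68.1%. It also rests on the choice of the 10 members, which leaves out the anti-apoptotic gene Bcl2l10. That gene had a mean of 323 FPKM in control 2-cell embryos, above the sum of the 10 members, and at most 1.04 later. With it alone added, anti-apoptotic genes and not BH3-only genes would make up most of the sum at the 2-cell stage. The choice also leaves out Bnip3, with a mean of 298.5 FPKM in control 2-cell embryos and 739.9 in control morulae. Bok (44.7) and Bad (22.45 in control morulae, as for Bok) are left out too. The shares therefore hold for these 10 members only. In KD blastocysts the BH3-only share was 11.9, 16.3, 10.8 and 13.9%, and all 4 values lay above the control libraries at 7.45, 9.78, 10.4 and 9.24%. The BH3-only share was 48.7% ± 3.56 (SD, n = 3) in KD 2-cell embryos and 15.9% ± 2.52 (SD, n = 3) in KD morulae, and at both stages the libraries overlapped with the controls. In KD blastocysts the effector share was 71.1% ± 4.32 (SD, n = 4) and the anti-apoptotic share 15.6% ± 3.14, and both overlapped with the control libraries. The FPKM ratio of Pmaip1 to Mcl1, genes whose proteins bind each other, was 0.106 to 0.225 in control and 0.280 to 0.461 in KD blastocysts, again without overlap. The same ratio overlapped in morulae (0.0515 to 0.172 in control and 0.151 to 0.203 in KD libraries) and in 2-cell embryos, and the ratio of Bax to Mcl1 overlapped in blastocysts (2.82 to 5.43 and 4.10 to 7.26).

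**Figure D3:**
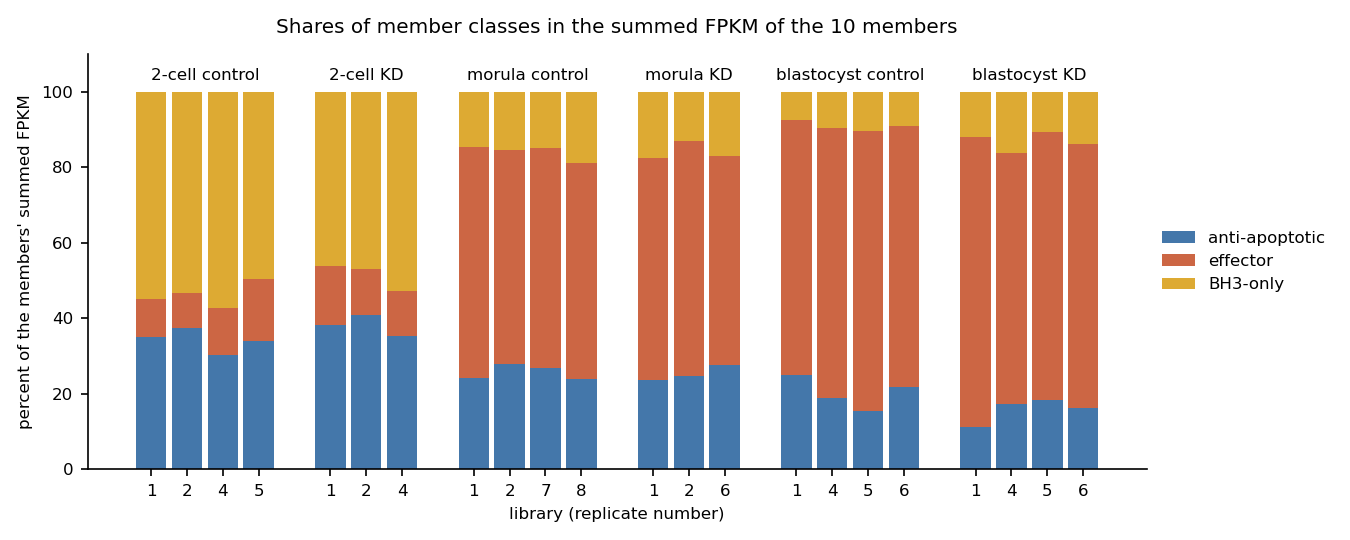
Percent of the summed FPKM of the 10 members held by anti-apoptotic (Bcl2, Bcl2l1, Mcl1), effector (Bax, Bak1) and BH3-only genes (Bid, Bik, Bbc3, Pmaip1, Bcl2l11), as stacked bars, 1 bar for each library under its replicate number. Effectors hold 9.22 to 16.5% in control 2-cell embryos and 56.6 to 74.3% in control morulae and blastocysts.

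Other genes of the pathway were read from lists of 15 further family members, 17 genes of mitochondrial apoptosis, 10 of the death receptor pathway and 13 regulators (14 entries, since Ddit3 is listed under 2 identifiers that may share reads). Beside the counts of these lists stand the shares of all genes that passed. These were 40.6% higher and 40.4% lower from the 2-cell embryo to the morula, 24.3% and 21.7% from there to the blastocyst, 4.23% and 9.04% in KD morulae, and 16.7% and 19.8% in KD blastocysts. In 2-cell embryos none passed between KD and control in limma (0 of 37 tested, 1 with an unadjusted p under 0.05).

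Among other family members, Bcl2l10, an anti-apoptotic gene of oocytes and early embryos, was 365, 275, 392 and 259 FPKM in control and 353, 304 and 277 in KD 2-cell embryos. It was thus more than 10 times Mcl1 at that stage, and it did not pass 1.04 in any later library. Its log2 fold change from the 2-cell embryo to the morula was -7.77 (limma, adjusted p = 8.19e-14). Bcl2l10 passed the filter only through the 2-cell libraries. It was at 1 FPKM or more in 4 control 2-cell, 1 control morula and 0 control blastocyst libraries. This fold change is therefore given as a description, and the call also held with no filter. Bnip3, a mitochondrial gene of mitophagy and cell death, had the highest mean FPKM of the list in control morulae (740) and control blastocysts (300.0). In all, 6 of 10 tested genes rose to the morula and 3 fell, and 1 rose and 5 fell from there to the blastocyst. Examples are Bok, an effector-like member, at 4.41 and then -1.61, and Bad, a BH3-only gene, at 3.19 in the first step. In KD morulae 0 of 9 passed, with 2 at an unadjusted p under 0.05. In KD blastocysts 2 of 8 were higher and 1 was lower. Bok was 11.0, 17.3, 17.9 and 10.7 in control and 30.5, 20.3, 29.1 and 29.8 in KD blastocysts, without overlap (0.93, SE 0.197, limma, adjusted p = 0.00338). Bcl2l14 was higher by 0.64 (limma, adjusted p = 0.0044). Bcl2l12 was lower at -0.55 (limma, adjusted p = 0.0412), a call lost without any 1 of control replicates 1, 4 and 5 and KD replicates 1, 4 and 6 (-0.58 to -0.44, highest adjusted p 0.116), with no filter and with FPKM as deposited.

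Downstream of the mitochondrial pore, 10 of 17 tested genes rose from the 2-cell embryo to the morula and 3 fell, and 7 rose and 3 fell from the morula to the blastocyst. Casp6, an executioner caspase, rose by 5.47 and Diablo, an antagonist of inhibitors of apoptosis, by 1.71 in the first step. Birc5, which encodes survivin and acts in cell division, had the highest mean of the list in every group, from 287 FPKM in control 2-cell embryos to 610 in control blastocysts. In KD morulae 1 of 16 tested genes was higher and 2 were lower. Endog, a mitochondrial nuclease, was 20.3, 20.0, 14.2 and 11.2 in control and 32.2, 38.7 and 25.6 in KD morulae, without overlap (1.07, limma, adjusted p = 0.00955, lost only with no filter). Vdac2, an outer-membrane channel that binds BAK1, was lower at -0.64 (limma, adjusted p = 0.0146), a call lost without KD replicate 2 (-0.58, 0.0736) and with the replicate block. Aifm1, a flavoprotein of the mitochondrial intermembrane space, was 10.3, 9.32, 11.5 and 11.1 in control and 6.06, 5.74 and 6.82 in KD morulae. Its log2 fold change of -0.57 passed (limma, adjusted p = 0.0449), but not without any 1 of control replicates 2, 7 and 8 and KD replicates 1 and 2 (-0.62 to -0.51, highest adjusted p 0.156), with no filter or with the replicate block.

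In KD blastocysts 2 of 17 genes of this list were higher and 4 were lower. Endog was 6.03, 11.7, 9.15 and 7.03 in control and 27.2, 17.3, 19.1 and 29.7 in KD libraries (1.37, SE 0.228, limma, adjusted p = 0.000761). Aifm1 was 22.2, 30.2, 34.6 and 23.9 in control and 8.17, 12.7, 10.2 and 10.3 in KD libraries (-1.33, SE 0.181, limma, adjusted p = 0.000205). Neither gene's groups overlapped. Vdac3 (-0.81) and Vdac2 (-0.65) were lower under all alternatives. Casp9, the initiator caspase of the apoptosome, was lower at -0.55 (limma, adjusted p = 0.0281; -0.89 with a pseudocount of 0.1), a call lost without any 1 of control replicates 4 and 5 and KD replicates 1, 4 and 6 (-0.55 to -0.45, highest adjusted p 0.0767), with no filter and with FPKM as deposited. Apaf1, the apoptosome scaffold, was higher at 0.42 (limma, adjusted p = 0.0475), and this was lost without any 1 library but KD replicate 4 (0.38 to 0.43, highest adjusted p 0.107), with FPKM as deposited, with the replicate block and with the batch.

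Of the 10 death receptor genes, 5 were tested in control development and 3 in each KD comparison. From the 2-cell embryo to the morula 2 rose (Tnfrsf10b and Tradd) and 2 fell (Ripk1 and Cflar). From there to the blastocyst 1 rose (Cflar) and 1 fell (Fadd). Tnfrsf10b, the mouse receptor for TRAIL, was the most abundant of the list in control and KD morulae and blastocysts (mean 4.03 and 5.53 FPKM in control morulae and blastocysts). In KD morulae 0 of 3 tested genes passed, with 1 at an unadjusted p under 0.05. In KD blastocysts Tnfrsf10b (0.75, limma, adjusted p = 0.0095) and the adaptor gene Tradd (0.77, limma, adjusted p = 0.017) were higher, 2 of 3 tested. The Tradd call was lost without control replicate 1 (0.63, 0.0503), control replicate 6 (0.70, 0.0513) or KD replicate 6 (0.66, 0.0531), and with no filter.

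The regulators included the p53 genes. In control embryos 2 of 11 tested entries rose to the morula (Trp53, which encodes p53, by 1.15, and Trp53bp2). In the same step 9 fell, among them both entries of Ddit3. Also lower were Mdm2, the gene of the ubiquitin ligase of p53 and itself a p53 target (-1.59), and Mdm4, a related inhibitor of p53 (-5.71). Mdm4 had the highest mean of the list in control 2-cell embryos, 456 FPKM, and Trp53 had it in control morulae (36.0) and control blastocysts (26.0). From the morula to the blastocyst 3 entries rose, Mdm4 (0.56) and both entries of Ddit3, and 2 fell. The call for Mdm4 was lost without any 1 of morula replicates 1 and 2 and blastocyst replicates 4 and 5 (0.42 to 0.55, highest adjusted p 0.0958, limma) and with no filter. In KD morulae 2 of 10 tested were higher. Mdm2 was 21.9, 13.0, 11.3 and 14.1 in control and 30.7, 25.4 and 27.2 in KD morulae, without overlap (1.00, SE 0.181, limma, adjusted p = 0.00821, lost only with no filter). Huwe1, the gene of a ubiquitin ligase of MCL1, was higher by 0.70 (limma, adjusted p = 0.0245), a call lost without any 1 of control replicates 7 and 8 and KD replicates 1 and 2 (0.57 to 0.72, highest adjusted p 0.0999), with no filter and with FPKM as deposited.

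In KD blastocysts 4 of 10 regulators were higher and 1 was lower. Trp53 was 12.7, 22.8, 39.9 and 28.4 in control and 49.5, 48.5, 75.9 and 53.8 in KD libraries (1.19, SE 0.246, limma, adjusted p = 0.00279). Mdm2 was 8.20, 15.2, 20.7 and 17.1 in control and 47.2, 33.2, 54.9 and 46.4 in KD libraries (1.56, SE 0.219, limma, adjusted p = 0.000247). In both genes every KD library was above every control library. Foxo3, a transcription factor that activates Bcl2l11 in other cells, was higher by 0.78 (limma, adjusted p = 0.014, lost with no filter). E2f1, a cell cycle transcription factor, was higher by 0.53 (limma, adjusted p = 0.0126), and by 1.02 with a pseudocount of 0.1. It passed the filter through the KD libraries alone (at 1 FPKM or more in 4 KD and 0 control libraries). Its call also held with no filter. Mdm4 was lower at -0.67 (limma, adjusted p = 0.0249), a call lost without any 1 of control replicates 4 and 5 and KD replicates 5 and 6 (-0.64 to -0.53, highest adjusted p 0.08) and with no filter.

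The genes whose levels were most like those of a member were taken by Pearson correlation over the 22 libraries among 15696 genes, for the 6 members tested in all KD comparisons. The 22 points are 3 stages under 2 treatments, and the parts of stage and treatment in these values were not tested. Bax was closest to Gm45808 (r = 0.985), with which it shares exons, and Rassf7 (0.98). Pmaip1 was closest to Mdm2 (0.93) and Ddit4l (0.896), and Bcl2l11 to Zfp217 (0.976) and Gm10668 (0.971). Mcl1 was closest to Gm44419 (0.919), Bcl2l1 to Kat2a (0.953) and Ddx54 (0.937), and Bid to Rmnd5b (0.864) and Chek2 (0.863).

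Promoters of the members that were higher in KD blastocysts are shown where a sequence was at hand. The RefSeq table on GRCm38.p6 held 8 of the 10 members, with 13 transcription starts, and not Bik and Pmaip1. The 250 bases before each start were searched on both strands for the GC box GGGCGG, the box CCAAT, the box TATAAA and the p53 half-site. Capitals mark every match, in either orientation, and matches may overlap.
Bax, chr7:45466899-45467148, minus strand: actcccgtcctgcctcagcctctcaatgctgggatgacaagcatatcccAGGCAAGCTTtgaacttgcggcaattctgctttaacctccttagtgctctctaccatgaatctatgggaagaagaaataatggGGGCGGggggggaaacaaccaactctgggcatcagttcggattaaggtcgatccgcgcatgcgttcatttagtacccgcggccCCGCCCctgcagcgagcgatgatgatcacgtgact
Bcl2l11, chr2:128125788-128126037, plus strand: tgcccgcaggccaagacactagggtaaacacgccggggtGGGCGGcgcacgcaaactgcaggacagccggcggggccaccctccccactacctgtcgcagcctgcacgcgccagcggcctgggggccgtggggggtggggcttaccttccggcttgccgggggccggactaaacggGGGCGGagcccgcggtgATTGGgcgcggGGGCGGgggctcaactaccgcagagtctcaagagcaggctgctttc
The Bax sequence held 1 p53 half-site and 2 matches of GGGCGG, and the Bcl2l11 sequence held 3 matches of GGGCGG and 1 of CCAAT. A second Bcl2l11 start, with the window chr2:128127325-128127574, had 2 matches of GGGCGG, 2 of CCAAT and 30 CG dinucleotides. Over all 32851 promoters of the table, 7.13% held a p53 half-site, 32.7% held GGGCGG, 33.8% held CCAAT and 12.4% held TATAAA in the same window. Of the 8 members, GGGCGG was found in 6 (Bcl2, Bcl2l11, Mcl1, Bid, Bbc3 and Bax), CCAAT in 2 (Bcl2l11 and Bbc3), the p53 half-site in 1 (Bax) and TATAAA in 0. By start, as in the background, these were 9 of 13 for GGGCGG, 3 of 13 for CCAAT, 1 of 13 for the p53 half-site and 0 of 13 for TATAAA. The Bax and Bcl2l11 windows held 14 and 24 CG dinucleotides, where the median of all promoters was 6. A match is a description of the letters and says nothing of binding.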

How the data were processed

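RNA-seq libraries were made with Smart-seq2 (16 to 18 preamplification cycles) and sequenced as paired reads of 150 bp. Per the methods and the submitters' processing notes, the authors aligned reads to mm10 with STAR and deposited FPKM from StringTie 2.1.4, which are scaled to gene length and library total. DESeq2 1.30.1 and featureCounts 1.6.2 are also named there, and their read counts were not used here. All 22 value columns matched a sample title.

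Within each comparison FPKM were divided by a median-of-ratios factor per library (0.88 to 1.20) and log2(value + 1) was taken. Genes reaching an FPKM of 1 in 3 or more libraries were fitted with limma 3.58.1 (R 4.3.3, eBayes with trend), within a stage for KD against control, over 12 control libraries for development and over 15 for the interaction. P-values were adjusted by Benjamini-Hochberg over all genes tested. The limma fit alone was also run on simulated data with independent noise for each gene and library. That run did not test the scaling, the filter or shared deviations of libraries, and no result here rests on it. Alternatives were a pseudocount of 0.1, no filter, FPKM as deposited, the replicate number as a block, low against high replicate numbers as a batch, and each library left out in turn. Tables and figures used Python 3.11.15, numpy 2.4.6, pandas 2.3.3 and matplotlib 3.10.9. GENCODE M21 held 54587 of the 55335 identifiers with the same version.

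The members and gene lists were chosen with earlier results of these data known. Besides the members, a gene of the lists is named when it passed at the stage described or had the highest mean FPKM of its list, and at most 2 of the most correlated genes are named for each member tested in all KD comparisons. The labels do not say that libraries of a group came from separate experiments, so p-values measure the spread between these libraries. Depth in reads is unknown, and the relative depth, read off 5123 genes with a single exon and 1000 or more bases, gives no interval for a value.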

Additional observations from a re-analysis of the deposited data

Results flagged for a closer look

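In groups of 4 libraries, 48 sets of values of the members, H2afz and H2afv were searched for a library far from the others, a rule by which chance marks about 1 in 20. Control morula replicate 1 stood apart for Bax (94.6 FPKM), Bcl2l1 (6.44), Bbc3 (0.253) and Bcl2 (0.0507), each time as the highest. KD blastocyst replicate 5 stood apart as the highest for Bcl2l1 (3.62) and Bbc3 (2.32). Mcl1 in control 2-cell replicate 4 was the lowest of its group at 17.8, and Bcl2 in control blastocyst replicate 1, at 0.00403, was the only library of its group above 0. The same holds for Bcl2 in control morula replicate 1, and with all other values at 0 the rule marks any library, so that the rate of chance does not apply to these 2 values of Bcl2. These values were not given an explanation, and their cause was not tested.

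A difference of the KD effect between blastocysts and morulae passed in the interaction test of limma for H2afv and for 1 of 9 tested genes of the further family, 1 of 17 of mitochondrial apoptosis, 1 of 3 of the death receptor pathway and 2 of 10 regulators, where 5.43% of all genes passed above 0 and 6.32% below. The signed difference, blastocyst minus morula, was 1.01 for Bok (adjusted p = 0.0134), 1.06 for Trp53 (adjusted p = 0.0409), 1.00 for Tradd (adjusted p = 0.0479), -0.79 for Aifm1 (adjusted p = 0.0418) and -0.94 for Mdm4 (adjusted p = 0.0424). For H2afv, which was lower in KD at both stages, it was 1.04 (adjusted p = 0.0207). Bok passed without each of the 15 libraries in turn and not with the replicate block. The call for H2afv was lost without KD morula replicate 6 (0.99, adjusted p = 0.05 after rounding), with no filter and with the replicate block. The calls for Trp53, Tradd, Aifm1 and Mdm4 were lost without any 1 of 11, 10, 11 and 10 of the 15 libraries. All 4 were also lost with no filter, Tradd, Aifm1 and Mdm4 with FPKM as deposited, Tradd and Aifm1 with a pseudocount of 0.1, and Aifm1 with the replicate block. The highest adjusted p in any of these were 0.13 for Trp53, 0.135 for Tradd, 0.101 for Aifm1 and 0.112 for Mdm4.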

How the results depend on the processing

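Of 63 called values of single genes, 43 kept their direction and their side of the threshold under every alternative run for them, among them those of Pmaip1 and Bcl2l11 in KD blastocysts. The replicate block and the batch were run for the KD comparisons and the interaction, and not for control development. The number of members called kept within 1.5 times in all comparisons but KD morulae, where it was 0. There it was 2 with the replicate block (Pmaip1 and Bcl2l1, in a fit with 1 residual degree of freedom), 1 with low and high replicate numbers as batches (Bcl2l11, adjusted p = 0.0499, limma), and 0 to 2 without each library in turn. Libraries with the same replicate number did not all deviate together (correlations from 0.0146 to 0.214 in 2-cell embryos, 0.0944 and 0.181 in morulae, -0.111 to 0.354 in blastocysts), so the numbers were not taken to pair them, and not every library correlated best with its own number. In morulae, control replicates 1 and 2 correlated above 0 with KD replicates 1 and 2 (0.0944 to 0.181). The same held for control replicates 7 and 8 with KD replicate 6 (0.185 and 0.347). All other pairs of morulae were below 0 (-0.278 to -0.0945). With low and high replicate numbers as batches, 2038 genes passed in KD morulae, against 1458. With the replicate block 3 members passed in blastocysts, 0 in 2-cell embryos and 0 in the interaction. Leaving out Bax, the member with the highest summed FPKM, moved the anti-apoptotic share to 38.8% in control and 43.9% in KD 2-cell embryos, 61.5% and 61.6% in morulae, and 68.1% and 54.0% in blastocysts, since Bax made up most of the sum in later stages. No called value turned sign. Pmaip1 at the 2-cell stage was 0.02, -0.034 with FPKM as deposited, -0.11 with the replicate block, -0.0239 with the batch, and -0.11 to 0.14 without each library. Leaving out libraries gave -0.0215 to 0.20 for Bik at the 2-cell stage, -0.064 to 0.36 for Bcl2l1 in KD blastocysts, -0.0846 to 0.22 for H2afz from 2-cell embryos to morulae, -0.32 to 0.0687 for Pmaip1 from morulae to blastocysts, and, for the interaction, -0.15 to 0.20 for Bik and -0.0873 to 0.10 for Mcl1. The interaction of Bik was -0.83 with a pseudocount of 0.1. Over all genes, 1458 passed in KD morulae, 412 with no filter, 579 and 551 without KD replicates 1 and 2, and 910 and 855 without control replicates 7 and 8. In the interaction 1495 genes passed, 988 with no filter and 962 without KD morula replicate 1. The cause of these changes was not tested. Bcl2 did not pass 0.157 FPKM and Bak1 did not pass 0.0413 in any library. Bbc3 did not pass 0.253 outside KD blastocyst replicate 5 (2.32). The number of reads behind these low values is unknown, so their differences are uncertain.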
